A study of Mus musculus with 52 samples.

Results

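Open chromatin was compared between beta-catenin stabilized and WT endothelial cells (ECs) of the mouse cerebellum, from ATAC-seq peak lists of 2 WT and 2 stabilized libraries. A region was defined as a stretch covered by a peak in at least 1 of the 4 libraries, and was kept where the peak had a fold enrichment over local background above 2 and a -log10 q above 2, with mitochondrial DNA left out. Gained regions carried a peak in both stabilized libraries and in neither WT library, and lost regions the reverse. Of 38999 regions, 5093 (13.1%) were gained and 670 (1.72%) were lost, so that 5763 are described here, and 19063 (48.9%) were called in all 4 libraries. These shares are fixed by the rule and are counts, not a test.

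The libraries came from about 50000 cells each, sorted from the cerebellum of adult male mice by a GFP under Tie2 control that marks ECs, and belong to a series of 52 samples that also holds RNA-seq of the same cell populations and ATAC-seq of ECs of both pituitary lobes. WT mice carried Tie2-GFP. Stabilized mice carried Tie2-GFP, Pdgfb-CreER, a tamoxifen-inducible Cre driven by the Pdgfb promoter in ECs, and the BcatEx3fl allele of beta-catenin on 1 chromosome, and received 100 µg of 4-hydroxytamoxifen (4HT) on day 10 after birth. The genotypes therefore differed in Cre and 4HT as well as in beta-catenin, and the contributions of the 3 cannot be told apart. The study's methods call the 2 libraries of a group biological replicates, and the sources used here do not give the number of animals behind each.

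ATAC-seq marks DNA that a transposase can reach, which in living tissue is mainly the DNA of promoters and enhancers. In the canonical Wnt pathway, ligands acting through Frizzled receptors and Lrp5 or Lrp6 prevent the breakdown of beta-catenin, which then joins DNA-bound TCF/LEF proteins and activates their target genes, and Cre excision of exon 3 of Ctnnb1 removes the sites whose phosphorylation marks the protein for breakdown. In the brain vasculature this pathway is needed for the blood-brain barrier, the property of brain ECs that rests on tight junctions, few transcytotic vesicles and a set of transporters.

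The sequences around some gained regions are shown first because the comparison turns on whether they hold TCF/LEF words. The words searched were TTCAAAG and ATCAAAG on both strands (CTTTGAA and CTTTGAT when read on the reference strand), in the window formed by the strongest summit and the 100 bases to each side of it. The 6 windows below were chosen because they hold such a word, as 12.8% of gained and 6.72% of lost windows do, and lie in gained regions outside exons and nearest to genes of the pathway, of tight junctions, or of vessel growth and branching. Axin2, a feedback inhibitor in the beta-catenin destruction complex, has one at chr11:108961865-108962065, past the end of the gene. Nkd2, a Dishevelled-binding feedback inhibitor, has one with 2 words at chr13:73881430-73881630. Lrp6, the Wnt co-receptor, has one at chr6:134592600-134592800. Tjp1, which encodes the tight junction scaffold ZO-1, has one with 2 words at chr7:65282122-65282322. Flt1, a VEGF receptor, and Jag1, a Notch ligand, have windows at chr5:147674348-147674548 and chr2:137057766-137057966. Letters are on the plus strand of GRCm38 (mm10), with the TCF/LEF words in capitals.
Axin2: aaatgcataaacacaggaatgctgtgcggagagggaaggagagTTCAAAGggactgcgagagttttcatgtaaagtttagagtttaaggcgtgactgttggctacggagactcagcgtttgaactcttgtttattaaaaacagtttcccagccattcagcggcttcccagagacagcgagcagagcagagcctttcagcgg
Nkd2: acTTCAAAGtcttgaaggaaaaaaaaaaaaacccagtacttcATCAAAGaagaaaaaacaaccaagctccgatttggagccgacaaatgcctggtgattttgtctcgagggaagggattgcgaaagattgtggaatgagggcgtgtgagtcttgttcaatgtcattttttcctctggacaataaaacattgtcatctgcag
Lrp6: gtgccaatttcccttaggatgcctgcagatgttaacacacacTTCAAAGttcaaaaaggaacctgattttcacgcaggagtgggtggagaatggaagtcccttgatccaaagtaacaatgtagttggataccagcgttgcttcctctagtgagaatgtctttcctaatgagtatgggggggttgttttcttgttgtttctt
Tjp1: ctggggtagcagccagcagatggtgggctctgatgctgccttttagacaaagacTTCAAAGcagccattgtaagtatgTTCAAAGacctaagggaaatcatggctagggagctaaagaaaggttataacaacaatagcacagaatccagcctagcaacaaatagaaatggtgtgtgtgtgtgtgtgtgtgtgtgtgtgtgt
Flt1: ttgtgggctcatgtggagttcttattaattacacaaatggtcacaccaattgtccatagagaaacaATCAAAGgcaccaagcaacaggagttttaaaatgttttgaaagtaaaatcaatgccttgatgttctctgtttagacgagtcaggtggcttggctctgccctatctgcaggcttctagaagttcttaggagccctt
Jag1: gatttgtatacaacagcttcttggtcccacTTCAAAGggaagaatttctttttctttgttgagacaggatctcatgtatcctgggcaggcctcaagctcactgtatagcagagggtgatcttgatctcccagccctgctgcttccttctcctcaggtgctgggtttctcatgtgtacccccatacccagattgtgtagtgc

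Both lost windows below, chosen from distal regions of high fold enrichment and not by their words, hold no TCF/LEF word. They are shown for their repeated stretches: 12 letters in a row occur up to 5 times in the window nearest to Epm2a, at chr10:11318297-11318497, and up to 2 times in that of an intron of Cobl, at chr11:12375032-12375232. The gained windows printed here varied in this too: the count was 1 in those of Axin2, Lrp6, Flt1 and Jag1, 2 in that of Nkd2, and 11 in that of Tjp1, which ends in a run of alternating letters.
Epm2a: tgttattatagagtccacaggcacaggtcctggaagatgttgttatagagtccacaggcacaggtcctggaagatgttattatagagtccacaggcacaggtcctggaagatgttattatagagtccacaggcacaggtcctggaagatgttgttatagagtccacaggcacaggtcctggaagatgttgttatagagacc
Cobl: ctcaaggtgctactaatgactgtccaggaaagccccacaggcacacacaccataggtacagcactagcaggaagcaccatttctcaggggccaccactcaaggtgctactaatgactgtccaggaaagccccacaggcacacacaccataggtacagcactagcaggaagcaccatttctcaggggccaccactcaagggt

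Depth differed with genotype. The genome-wide background pileup, the number of fragment ends expected per position, was recovered from the p-values and was 4.00 and 5.04 in the WT and 7.37 and 7.21 in the stabilized libraries. The WT libraries kept 26394 and 24020 peaks and the stabilized libraries 33514 and 31669. In the regions called in all 4, the median log2 fold enrichment was 3.02 and 3.0 in WT and 3.50 and 3.43 in stabilized libraries. Fewer fragments stood behind a WT peak of equal fold enrichment, so counts of gained against lost regions cannot be read as a balance of opening and closing. In a bulk library, a smaller share of cells with an open region and less openness in each cell cannot be told apart.

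Most gained regions were weak. Their mean fold enrichment had quartiles of 3.31, 3.92 and 4.76, against a median of 11.0 in the stabilized libraries for the regions called in all 4, and the median pileup behind them was 38 and 34 fragment ends. The values nearest to the threshold were a fold enrichment of 2.0 and a -log10 q of 2.01. Just outside the rule stood 1277 regions called in all libraries but WT 1, 2874 in all but WT 2, and 115 gained regions had a weaker deposited WT peak that did not pass the filter. When each stabilized pileup was scaled down to WT depth, 4533 (89.0%) would still have passed, and when it was also multiplied by 0.5, 523 (10.3%) would have passed. Lost regions were as weak, with quartiles of 3.36, 3.90 and 4.60, and 179 of them (26.7%) met the latter condition. With the 20000 peaks of highest -log10 q of each library, 24792 regions gave 1360 gained (5.49%) and 882 lost (3.56%). Of these, 695 and 238 were also gained or lost in the full lists.

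**Figure D1:**
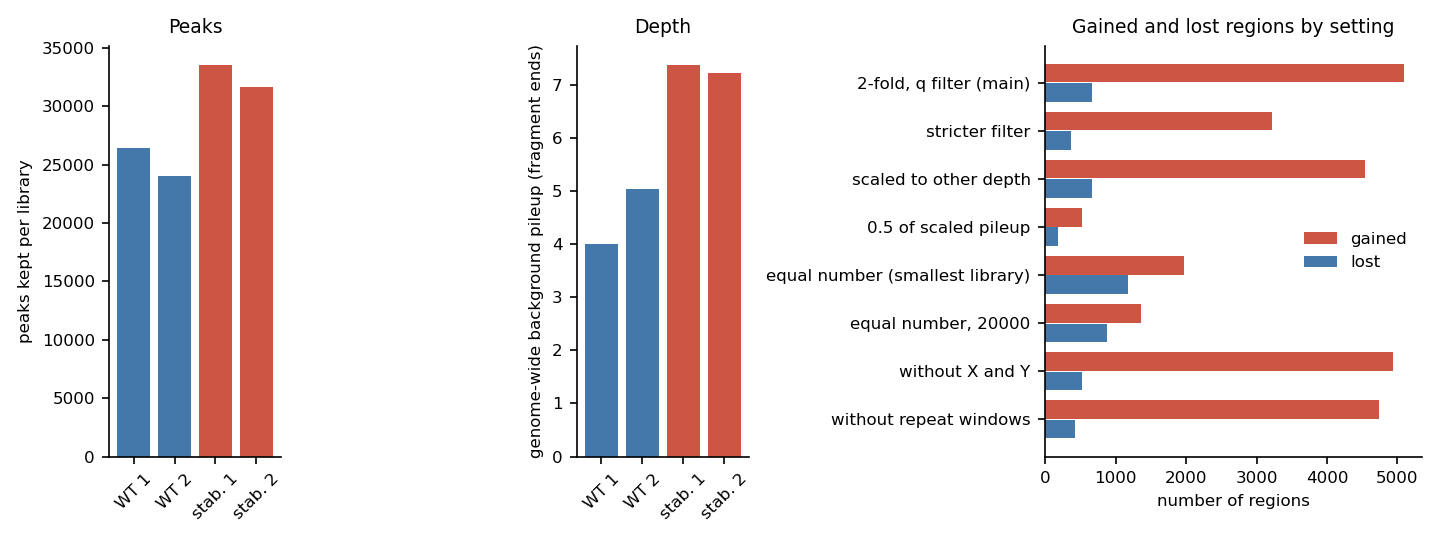
Peaks kept per library (left), background pileup per library in fragment ends (middle), and the number of gained (red) and lost (blue) regions under each setting (right); WT libraries are blue and stabilized libraries red, and each bar is 1 library or 1 count. The excess of gained over lost regions, 5093 against 670 in the full lists, narrowed to 1360 against 882 when every library gave 20000 peaks.

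The 12 gained regions of highest fold enrichment reached well past this range. The first covered the promoter of Fggy, a carbohydrate kinase gene, at chr4:95557077-95557829, with a fold enrichment of 23.6 and 22.4 in the stabilized libraries and 1 TCF/LEF word. The promoter of Dynlt1b, a dynein light chain gene, had 19.9 and 17.9, and it belongs to a family of near-identical copies whose reads can be divided among them. An intron of Dclk2, a microtubule-associated kinase gene, had 16.9 and 16.5. An intron of Rbpj, the DNA-binding factor of Notch signalling, had 13.8 and 13.3 at chr5:53497142-53497785, and no peak there in any of the 8 pituitary libraries. The other 8 were nearest to Gm29554 on the Y chromosome, Cep112 (1 word), Tmprss12, Mip, Ttll7, Lcmt1, Olfr370 and Pot1a (1 word). Both libraries of every one of these regions were above 10, and the WT libraries had no peak that passed.

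The RNA of the nearest genes did not move with these regions past the test. Fggy was listed at 0 and 0 TPM (transcripts scaled for their length and for the total of the library) in the WT and at 0 and 33.1 in the stabilized RNA libraries, and Dynlt1b at 0 and 0 against 7.61 and 0. Rbpj was at 8.43 and 6.27 against 6.58 and 32.0. In each case 1 stabilized library stood apart and the other lay at or within the WT values. Ttll7, a tubulin glutamylase gene, was at 28.4 and 9.35 TPM in WT and at 30.4 and 34.2 in stabilized ECs (log2 fold change 1.06, SE 0.35, adjusted p = 0.319 in edgeR).

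Among the 12 lost regions of highest fold enrichment, the first lay before Atp11b (-73518 bp from the nearest annotated transcript start of the gene, as all distances from a named gene are given) at chr3:35680393-35681030, with 26.4 and 24.7 in the WT libraries, and 98.5% of its window is masked as repeat. An intron of Cobl, an actin nucleator gene, had 25.7 and 23.6, and a region before Epm2a, the gene of the glycogen phosphatase laforin, 11.4 and 16.5. All 3 carried peaks in all 8 pituitary libraries, stabilized ones included. The promoter of Lypd6, which encodes an Lrp6-binding enhancer of Wnt signalling, had 11.4 and 9.6 at chr2:50066171-50066940. Its RNA was at 1.05 and 0.663 TPM in WT and at 0.0417 and 0 in stabilized ECs (adjusted p = 0.543 in edgeR, not called). The other 8 were nearest to 9530002B09Rik, Gm37596, Tmem241, Slc11a2, Slc25a33, Prkcq, Mpp7 and Plpp1. All 24 named regions also held at 0.5 of the scaled pileup and with 20000 peaks per library.

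**Figure D2:**
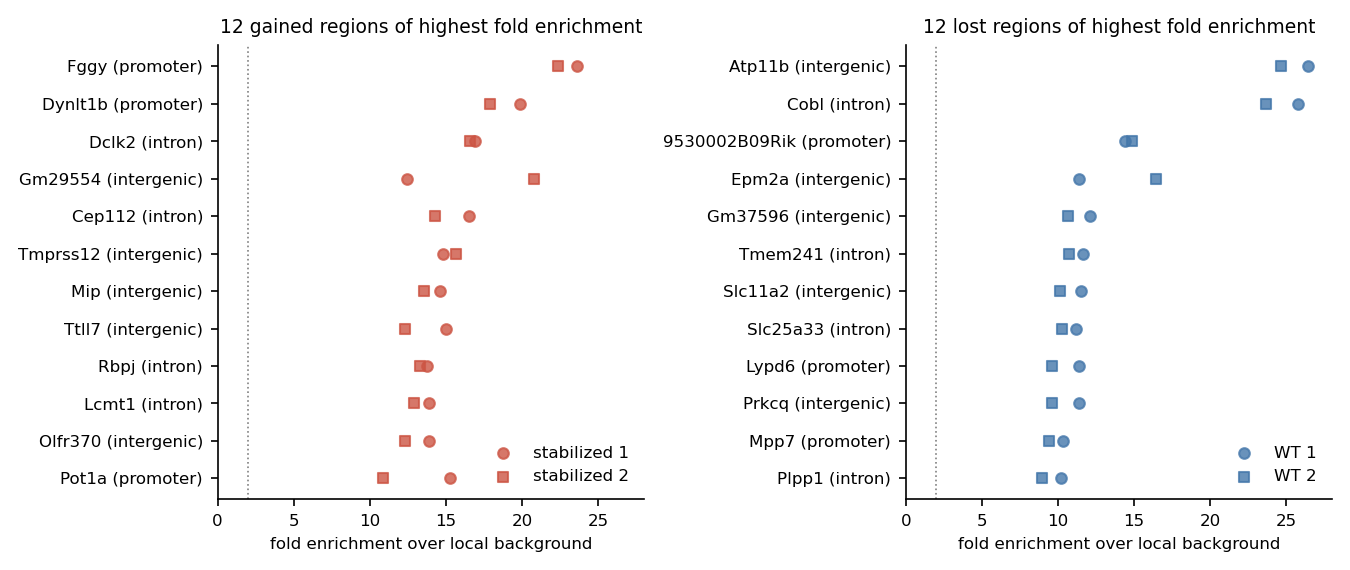
Fold enrichment over local background (horizontal axis, linear) of the 12 gained regions of highest mean value in stabilized 1 (circles) and 2 (squares), left, and of the 12 lost regions in WT 1 and 2, right, by nearest gene and place; the dotted line marks the threshold of 2. The libraries of the other genotype have no peak at these regions and so no point. Fggy (23.6 and 22.4) and Atp11b (26.4 and 24.7) lead the panels.

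Gained regions lay mainly away from promoters. A region was placed at a promoter where its summit lay within 1000 bp, to either side, of an annotated transcription start. Of the 5093 gained regions, 1128 (22.1%, 95% Wilson interval 21 to 23.3) were at promoters, 2123 (41.7%) in introns, 1592 (31.3%) between genes and 250 (4.91%) in exons. The median distance to a start was 6705 bp. Of the 670 lost regions, 106 (15.8%, 13.3 to 18.8) were at promoters, 192 (28.7%) in introns, 351 (52.4%) between genes and 21 (3.13%) in exons, at a median distance of 9783.5 bp. Among all 38999 regions 39.4% were at promoters, and among those called in all 4 59.3%. Regions that only 1 library carried were also mostly distal, with 16.3% and 18.9% at promoters for WT 1 and WT 2 and 19.9% and 20.9% for stabilized 1 and 2. Windows of which more than 50% is masked repeat made up 6.89% of gained, 37.2% of lost and 2.59% of shared regions. The intervals cover counting error only.

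Part of the lost regions lay on the Y chromosome. It held 121 of the 670 (18.1%), of which 112 were mostly masked, and 9 of the gained regions, and 31.4% of all its regions were lost. The libraries kept 203 and 305 peaks on the Y in WT and 44 and 42 in stabilized ECs. All are labelled male. In the RNA libraries, which need not be of the same animals, the Y-linked gene Ddx3y was at 23.5 and 29.8 TPM in WT and 29.1 and 23.2 in stabilized ECs. The groups also overlapped for Y-linked Eif2s3y and Kdm5d. Uty, on the Y too, was lower without overlap, at 33.0 and 10.7 against 6.97 and 9.10 TPM. The pituitary libraries had the same split, with 135, 180, 214 and 214 Y peaks in WT and 35, 34, 28 and 21 in stabilized ECs. On the autosomes, 523 lost regions remained, 18.4% of them at promoters and 22.2% mostly masked.

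TCF/LEF words were more frequent in gained than in lost regions. They were present in 653 gained windows (12.8%, 11.9 to 13.8), in 45 lost windows (6.72%, 5.06 to 8.87), in 8.04% of the windows called in all 4 and in 9.36% of all 38999. Because promoters hold few such words, distal windows were also taken alone. There the share was 14.1% for gained (561 of 3965), 7.09% for lost (40 of 564) and 14.8% for regions called in all 4 (1151 of 7762), with 12.7% over all distal regions. In distal windows, then, the gained regions stood above the lost ones and near the regions open in every library. At promoters the words were in 8.16% of gained, 4.72% of lost and 3.38% of shared windows. The same letters read backwards (GAAACTT and GAAACTA), a control for base composition, were in 4.69%, 4.61% and 4.41% of the distal windows of the 3 classes.

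The share changed with the setting. With 20000 peaks per library, where 695 of the 1360 gained and 238 of the 882 lost regions were also gained or lost in the full lists, 17.1% of gained and 6.46% of lost windows carried one, and in distal windows 19.2% of gained, 7.03% of lost and 15.8% of shared. Among gained regions that met the condition of 0.5 of the scaled pileup the share was 17.4%, and 19.6% in distal windows. Distal regions in a single stabilized library lay lower than those in both, at 11.2% for stabilized 1 alone and 8.69% for stabilized 2 alone against 14.1%. In WT, the regions in both libraries (7.09%) lay between those of WT 1 alone (9.74%) and WT 2 alone (5.64%).

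The words sat near the summits of gained regions. Within 25 bp of the summit, distal gained regions had 0.948 words per kb, those gained with 20000 peaks 1.37 and those called in all 4 0.977, against 0.447 and 0.450 words per kb at 300 to 500 bp for the first and last. Lost regions had 0.355 within 25 bp and 0.386 at 300 to 500 bp. The backwards letters had 0.227 words per kb within 25 bp in gained regions and 0.295 at 300 to 500 bp. The rise towards the summit was thus seen in gained and shared regions and in neither the lost regions nor the control letters.

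**Figure D3:**
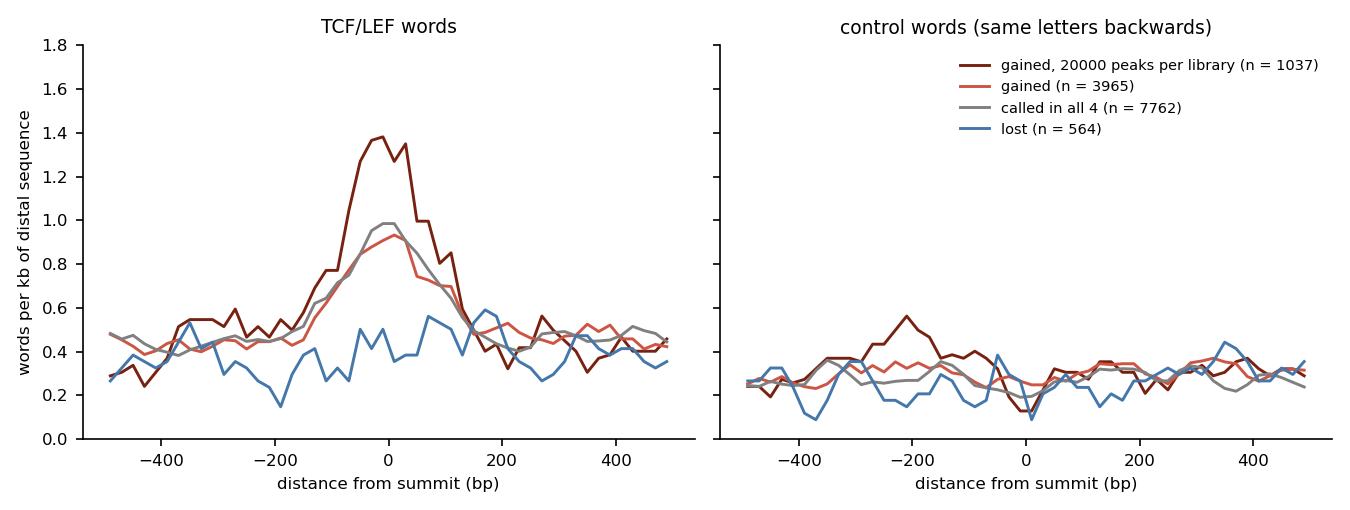
Words per kb (vertical axis, mean over 3 neighbouring bins) by distance from the summit in bp, in distal regions gained, gained with 20000 peaks per library, called in all 4 libraries, and lost; TCF/LEF words left, the same letters read backwards right. The lines of gained and shared regions peak at the summit, at 0.948 and 0.977 words per kb within 25 bp, and the line of lost regions does not.

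Base composition went along with the word count, so the shares were also taken in bands of GC content. In distal windows of 40 to 45% GC the words were in 22.2% of gained, 9.46% of lost and 24.9% of shared windows, and in windows of 50 to 55% GC in 9.84%, 8.15% and 15.8%. With 20000 peaks per library the corresponding shares were 26.9%, 8.47% and 26.7%, and 16.7%, 8.04% and 16.9%. Gained windows were above lost windows in each of these bands, and not above shared windows in the full lists.

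Words of other factors were counted in the same windows. In distal windows of the full lists, ETS and SOX words had the order of TCF/LEF words, lowest in lost and highest in shared windows. The CTCF, KLF/SP and FOX words did not. The AP-1, MEF2 and CREB words and the nuclear receptor half-site had that order too. A higher share in gained than in lost distal windows was thus not particular to TCF/LEF words. GATA words were in 5.75% of gained and 2.84% of lost, and NFI words in 16.4% and 9.57%. Of all words counted, those of KLF/SP and ZIC went the other way. The CTCF motif, bound by an organizer of chromatin loops, was in 5.35% of distal gained, 0.177% of distal lost and 2.22% of distal shared windows. The ETS words CAGGAAG and CCGGAAG, bound by factors that specify ECs, were in 20.7%, 18.6% and 29.3%, and the KLF/SP words GGGCGGG and GGGTGGG in 12.2%, 14.4% and 22.1%. The SOX words CATTGTT and CATTGTC were in 9.79%, 6.03% and 11.7%, and the FOX words TGTTTAC and TGTTTGC in 10.1%, 6.38% and 9.59%. These ETS, KLF/SP, SOX and FOX words and the CTCF motif were sought on both strands, and none of them contains a TCF/LEF word. With 20000 peaks per library, the shares in gained, lost and shared windows were 3.28%, 0.586% and 2.26% for CTCF and 12.1%, 22.8% and 22.9% for KLF/SP, so that the lost windows were then level with the shared ones in KLF/SP words. The shares of the other 3 were 23.9%, 22.7% and 29.6% for ETS, 12.0%, 7.76% and 12.2% for SOX and 12.2%, 6.30% and 9.56% for FOX. The order of the classes was that of the full lists for all 5. It was not for TCF/LEF words, which were then in 19.2%, 7.03% and 15.8%, highest in gained windows.

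The same question was put to the regions called in all 4 libraries. The rule required a fold enrichment above 2 of each of their peaks and did not use the difference between genotypes, so the comparison is limited to regions past that value in every library. After centring each library on its median, limma called 117 regions higher (0.614% of 19063) and 441 lower (2.31%) in stabilized ECs, at an adjusted p under 0.05 and a change of at least 1.5-fold. TCF/LEF words were in 26.5% of the higher windows, 3.4% of the lower and 8.04% of all. Of the lower regions 26.5% were mostly masked repeat, against 1.71% of the higher. Ranked by the difference and divided into 10 groups of equal size, a ranking added after the data had been seen, distal windows held a word in 7.98% (6.27 to 10.1) of the lowest group, where the median log2 difference was -0.83, and in 22% (19.3 to 25.1) of the highest, where it was 0.59. The backwards letters went from 2.83% to 5.15%. Mostly masked windows went from 19.8% of the lowest to 1.93% of the highest group, and the ranked shares were not taken without them. The balance of the calls followed the scaling: without centring 3841 were higher and 142 lower, and quantile normalization in place of centring left 5 and 7.

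**Figure D4:**
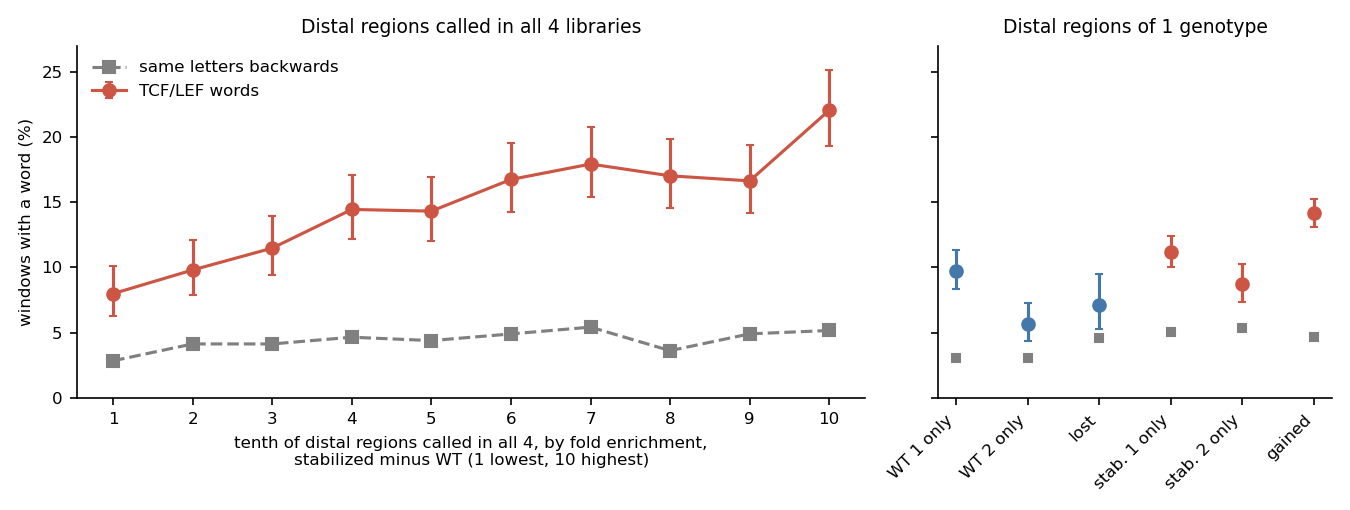
Share of distal windows with a TCF/LEF word (red or blue points, bars are 95% Wilson intervals) and with the same letters read backwards (grey squares). Left, regions called in all 4 libraries in 10 groups ranked by log2 fold enrichment, stabilized minus WT, with shares from 7.98% in the lowest to 22% in the highest group. In these 2 groups 19.8% and 1.93% of windows were mostly masked repeat. Right, regions called in 1 or both libraries of 1 genotype, with 14.1% in gained and 7.09% in lost regions.

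Among these regions the largest rise lay before Otud7b, a deubiquitinase gene (-20011 bp from its start). Its fold enrichment was 3.8 and 2.81 in WT and 17.6 and 17.6 in stabilized ECs (log2 difference 1.97, SE 0.21, limma adjusted p = 0.0210, higher in both libraries). Asap2, a regulator of Arf proteins, was the nearest gene to 2 regions that rose. Its own promoter went from 3.13 and 3.57 to 14.2 and 10.7 (log2 difference 1.42, SE 0.22, limma adjusted p = 0.0323). The promoter of another annotated transcript, -69141 bp from the Asap2 start, went from 3.17 and 2.56 to 12.0 and 14.1 (log2 difference 1.73, SE 0.23, limma adjusted p = 0.0254). The other regions of this group were nearest to Fam205c, Nlgn1, Wdr63, Phf20, Tap2, Trim43a and Lrmda, and the last held 2 TCF/LEF words. The largest fall was in an intron of Snrpb2, a spliceosome gene, from 12.8 and 9.50 to 2.80 and 2.64 (log2 difference -2.48, SE 0.23, limma adjusted p = 0.0169). An intron of Col4a1, a collagen of the vascular basement membrane, fell from 8.22 and 7.52 to 3.23 and 3.29 (log2 difference -1.73, SE 0.20). The others were nearest to Epm2a, Il1rapl1, Cyp2r1, Mex3b, Pxylp1, Pacs1, Ccdc66 and Ankrd35, and none of the 10 falling windows held a TCF/LEF word. With quantile normalization in place of centring, the Otud7b region was still called (limma adjusted p = 0.0493). The Asap2 promoter, the other Asap2 region, Snrpb2 and Col4a1 were not (limma adjusted p = 0.0593, 0.0517, 0.0517 and 0.0518). Their log2 differences were then 1.58, 1.99, -2.22 and -1.54.

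Of 24 feedback inhibitors and targets of the Wnt pathway, 12 were nearest to at least 1 gained region, 25 regions in all, and 1 to a lost region; among 14576 protein-coding genes tested in RNA, 20.1% were nearest to a gained and 2.47% to a lost region. Genes in wide intergenic stretches draw more regions by this assignment, and no list was tested against the others. The 24 genes were also nearest to 78 regions called in all 4 libraries. Over all genes, 5093 regions were gained and 19063 were called in all 4. Of the 25 regions, 8 (32.0%) held a TCF/LEF word, 3 were at promoters, 14 had no peak in any pituitary library, 2 were also gained with 20000 peaks and 0 met the condition of 0.5 of the scaled pileup. Their fold enrichments were low, at a median of 3.33. The Axin2 region shown above, chr11:108961633-108962145, had 3.82 and 5.97. Its RNA was at 30.2 and 41.4 TPM in WT and 73.9 and 113 in stabilized ECs, higher in both libraries, but the test did not call it (log2 fold change 1.47, SE 0.95, adjusted p = 0.585 in edgeR). Nkd1, a paralog of Nkd2 with 4 gained regions between 2.32 and 5.14, was at 27.5 and 23.2 TPM against 196 and 174, and its groups did not overlap either (2.66, SE 0.66, adjusted p = 0.118 in edgeR). Nkd2 itself, with 3 gained regions, was low, at 2.0 and 1.53 against 0.913 and 0.0406 TPM.

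Lef1, a TCF/LEF factor and itself a target, had 3 gained regions, 2 with a word, at 3.59 and 3.90, 3.47 and 3.17, and 3.35 and 2.68. Its RNA was at 156 and 120 TPM in WT and 116 and 237 in stabilized ECs, which overlap. Tnfrsf19, a Wnt-induced receptor gene of the TNF receptor family, had 5, among them a promoter with 2 words at chr14:61063876-61064219 (5.38 and 4.63) that had no peak in any pituitary library. Myc and Prickle1 had 2 each, and Notum, Znrf3, Tcf7l1, Dkk2 and Ccnd1 had 1 each. The lost region lay in an intron of Kremen1, a co-receptor of Dkk proteins, at 5.84 and 5.86 in WT, and held 1 word. A list of 11 Wnt receptors and ligand-binding proteins also held the pathway genes Ctnnb1, Apc and Gsk3b. Of these 11, Fzd4 (5.99 and 5.70) and Lrp6 (5.62 and 4.75) had 1 gained region each, and the other 9 had none.

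Transporters of the barrier gave 13 of 22 genes with 26 gained and 3 lost regions. An intronic region nearest to Slc22a8, the organic anion transporter Oat3 (-72145 bp from its start), was the clearest in both libraries, at 8.13 and 7.77 (chr19:8518238-8519316), and also carried peaks in both stabilized libraries of each pituitary lobe and in no WT pituitary library. Its RNA was at 158 and 168 TPM in WT and 199 and 193 in stabilized ECs (log2 fold change 0.42, SE 0.46, adjusted p = 0.811 in edgeR). Slc16a1, the lactate transporter, had 4, the highest at 8.72 and 5.12. Abcc4, an efflux pump, had 5, of which the highest stood at 6.87 and 7.09 and at 5.46 and 6.79. Abcb1a, P-glycoprotein, had 2 at promoters (5.26 and 4.26, 3.82 and 3.05), Abcg2 3 and Slc7a1, an arginine transporter, 3. Slco1a4, an organic anion transporter, had 2 gained regions (4.29 and 4.59, 3.95 and 3.61) and 2 lost ones (5.62 and 3.31, 3.8 and 6.29). Slco1c1, which carries thyroid hormone, had 1 of each. Slc2a1, the glucose transporter, had 1 gained region 29534 bp past its start, at the promoter of another annotated transcript, with 3.01 and 3.25. Its RNA was lower in both stabilized libraries, at 1579 and 1625 TPM in WT and 1071 and 941 in stabilized ECs, but was not called (log2 fold change -0.31, SE 0.32, adjusted p = 0.796 in edgeR). Lrp8, Slc19a3, Slc30a1 and Slc3a2 had 1 gained region each.

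Tight junction genes gave 7 of 13 with 12 gained regions, of which 4 (33.3%) held a TCF/LEF word, and 1 lost region. Among them Tjp1 had 3, Pard3 2, and F11r, Jam2, Marveld2 and Ocln 1 each. The Tjp1 region shown above had 5.86 and 4.75. The lost region was at the promoter of Esam, at 2.22 and 2.79 in WT, close to the threshold, and also held a TCF/LEF word. Tjp1 RNA was at 329 and 337 TPM in WT and 400.9 and 319 in stabilized ECs, so the groups overlapped.

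Transcription factors linked to the barrier or to EC identity had the most gained regions, 38 nearest to 13 of 24 genes, and 0 lost. They were also nearest to 141 regions called in all 4 libraries, against 5093 gained and 19063 called in all 4 over all genes. Among them Ets1 had 6, Erg, Foxc1 and Foxo1 4 each, Etv6, Sox17 and Lef1 3 each, Elk3, Ppard and Tbx3 2 each, and Fli1 and Klf4 1 each. Words of TCF/LEF were in 4 of the 38 (10.5%). Sox17 RNA, which encodes an arterial factor, was at 42.2 and 27.4 TPM in WT and 24.5 and 6.32 in stabilized ECs. A list of fenestra and caveola genes that also holds receptors and other genes of permeable vessels gave 5 of 14 with 10 gained regions and 1 lost one near Aplnr. Of these, 1 was nearest to a caveola gene, Cav1. The others were nearest to genes of neither structure: the VEGF receptors Flt1 (5) and Kdr (1), Vwf, which encodes von Willebrand factor (2), and the apelin receptor gene Aplnr (1). Pan-endothelial genes gave 10 of 12, with 16 gained regions nearest to Cdh5, Egfl7, Emcn, Eng, Erg, Fli1, Icam2, Robo4, Tek and Tie1, and 2 lost ones nearest to Cdh5 and Pecam1. Regions called in all 4 numbered 55 for this list and 59 for the fenestra and caveola list. They numbered 78 for the transporters and 47 for the tight junction genes. In RNA, edgeR called 0 of the 117 genes tested in these 7 lists in either direction, against 12 higher and 104 lower of all 17900 genes. At an unadjusted p under 0.05 in edgeR, 5 were higher and 11 lower, against 431 and 1318 of all 17900. DESeq2 called 0 higher and 5 lower (Aplnr, Cldn12, Ehd2, Igfbp3 and Myc), against 123 and 649 of all 17900.

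Arterial and Notch genes gave 9 of 18 with 20 gained regions, and venous and leukocyte adhesion genes 7 of 12 with 15, none of either list with a lost region. Regions called in all 4 libraries numbered 55 and 26 for these lists. Jag1 had 5 and Notch1 and Efnb2 3 each. Tgfbr2, a receptor of TGF-beta, had 5 and Nrp2, a semaphorin and VEGF-C receptor, 3. Nrp2 RNA fell, from 12.1 and 10.8 to 3.25 and 4.41 TPM (log2 fold change -1.58, SE 0.26, adjusted p = 0.0129 in edgeR). Its gained regions stood at 7.53 and 5.12, 3.23 and 3.65, and 3.56 and 3.58. They lay -512719, -163238 and -2040 bp from its start, and the second window was 100% masked as repeat. Nrp2 and Icam1 were the 2 of 12 venous genes called lower, against 0.581% of all 17900 genes tested, and neither was called in a fit of the 4 cerebellum libraries alone (adjusted p = 0.436 for both in edgeR). Mural cell genes, which mark pericytes and smooth muscle, had more open promoters in 1 stabilized library: 0 and 1 of 12 were nearest to an open promoter region in the WT and 5 and 2 in the stabilized libraries, against 69.1% and 69.1%, and 73.2% and 72.2%, of 14576 protein-coding genes, and 6 gained regions were nearest to Rgs5, Myh11, Notch3, Pdgfrb and Cspg4. The summed RNA of the 12 genes was 1074 and 889 TPM in WT and 703 and 509 in stabilized ECs. Single WT libraries stood apart in markers of other cells. The RNA of 7 erythrocyte genes summed to 65219.1 and 7177.55 TPM in WT against 12307.1 and 13276.5. That of 8 choroid plexus genes summed to 0.0812 and 69.6 against 0.0744 and 0.949. For 10 astrocyte genes the open promoters were 3 and 3 against 3 and 4, for 10 oligodendrocyte lineage genes 2 and 2 against 3 and 3, for 14 neuron genes 3 and 4 against 5 and 4, for 8 choroid plexus genes 0 and 0 against 1 and 1, and for 14 microglia genes 2 in each library. Gained regions were nearest to 4 of the astrocyte, 2 of the oligodendrocyte, 1 of the neuron, 2 of the choroid plexus and 0 of the microglia genes. The part of such cells in the gained regions was not tested.

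Some genes drew clusters of gained regions within 100 kb of the gene body. Synpo2, an actin-binding protein of muscle, had 11, and was the nearest gene to 8 regions. Its RNA was at 8.46 and 4.69 TPM in WT and 32.5 and 18.7 in stabilized ECs, groups that did not overlap (log2 fold change 2.26, SE 0.84, adjusted p = 0.390 in edgeR). Creg1 and its close neighbour Cd247 had 11 each, and Creg1 RNA was at 49.9 and 27.1 against 37.5 and 36.0 TPM, which overlap. Tcf4, an E-protein that is no TCF/LEF factor despite its symbol, had 9, Arhgap26 9 and Synpo 8. Synpo RNA, of an actin-associated protein, fell from 4.28 and 3.0 to 0.159 and 0.193 TPM (log2 fold change -3.62, SE 0.47, adjusted p = 0.00358 in edgeR), and was not called in the cerebellum libraries alone (adjusted p = 0.436). Fgfr2 had 10 and Gm20388 29, but both are gene models of several megabases and the nearest gene to 0 gained regions. With 20000 peaks per library, Creg1 and Cd247 had 0 gained regions within 100 kb, Synpo2 5, Arhgap26 4, Fgfr2 4, Gm20388 2, and Tcf4 and Synpo 1 each. Regions of any class within 100 kb numbered 21 at Synpo2, 23 at Creg1 and 21 at Cd247. They numbered 45 at Tcf4, 38 at Arhgap26 and 24 at Synpo, and 13.1% of all 38999 regions were gained. Lost regions clustered at Atg7, an autophagy gene, which had 7 within 100 kb and was the nearest gene to 7, and at 1600014C10Rik and its neighbours Pop4, Ccne1 and Plekhf1. Grm4, E330021D16Rik and Gm20388 completed the 8 genes with the most. With 20000 peaks per library, Atg7 had 3 lost regions within 100 kb, while 1600014C10Rik, Pop4, Ccne1 and Plekhf1 had 4 each, as in the full lists.

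RNA of the genes nearest to gained regions did not rise as a group. Of 17900 genes tested, edgeR called 12 higher (0.067%) and 104 lower (0.581%) in stabilized ECs. The fit took its spread from 12 libraries of the cerebellum and both pituitary lobes, and far fewer genes were called with the cerebellum libraries alone, as given below. Of 2935 tested genes nearest to a gained region, 3 were higher (0.102%) and 26 lower (0.886%), with a median log2 fold change of -0.08, the same as over all genes tested, and 42.4% of them above 0. The 1047 tested genes nearest to regions gained with 20000 peaks per library had a median of 0 and 47.9% above 0, and the 421 nearest to those at 0.5 of the scaled pileup 0.01 and 51.1%, against -0.06 and 43.9% for genes nearest to any region. Of 360 nearest to a lost region, 0 were higher and 8 lower (2.22%), with a median of -0.19. At an unadjusted p under 0.05 in edgeR, 8 were higher and 46 lower, against 431 and 1318 of all 17900. DESeq2 called 3 higher and 25 lower, against 123 and 649 of all 17900. Genes nearest to a region called in all 4 gave 6 higher and 72 lower of 10465, with a median of -0.04. On simulated counts with the spread of these libraries, edgeR recovered 29 of 100 genes changed 4-fold, so that most changes of that size pass unseen with 2 libraries a group. Of 100 genes changed 2-fold it recovered 1. A call itself required a 2-fold change, so that count does not reflect the group size alone.

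The 3 genes that rose and were nearest to a gained region were Esr1, Lepr and Pcdh7. With 20000 peaks per library, Lepr was nearest to 1 gained region, Pcdh7 to 0, and Esr1 to 0 gained and 1 lost region. Esr1, the estrogen receptor alpha, was at 0 and 0.0518 TPM in WT and at 47.9 and 76.7 in stabilized ECs (adjusted p = 0.00513 in edgeR), with a gained region 851 bp past the nearest of its annotated transcript starts at chr10:4612740-4613036 (3.94 and 4.51). Lepr, the leptin receptor, rose from 4.96 and 7.44 to 24.3 and 9.57 TPM (log2 fold change 1.98, SE 0.38, adjusted p = 0.0366 in edgeR), with an intronic region at chr4:101732541-101732894 of 10.4 and 11.7 and another of 3.47 and 3.78. Pcdh7, a protocadherin, rose from 0.281 and 0.223 to 0.588 and 2.24 TPM (2.60, SE 0.46, adjusted p = 0.0225 in edgeR). It was the nearest gene to 4 gained regions of 2.75 to 4.63. They lay -2029, 56135, 216426 and 1203894 bp from its start, and the last window was 100% masked as repeat. In each of the 3 genes the groups did not overlap. In a fit of the 4 cerebellum libraries alone none of the 3 was called (adjusted p = 0.436, 0.436 and 0.606 in edgeR), and Lepr was not called without WT replicate 1 or without stabilized replicate 2 (adjusted p = 0.0880 and 0.0934 in edgeR). None of the Esr1 or Lepr windows and 1 of the 4 Pcdh7 windows held a TCF/LEF word.

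The genes called lower beside gained regions were often barely detected. In the fit of the cerebellum libraries alone, Ccl21a (adjusted p = 0.0404 in edgeR) was the 1 gene still called of the 26 nearest to gained and the 8 nearest to lost regions. Csrnp1, Dram1, Traf1, Hdac11 and Col25a1 were between 0.115 and 2.17 TPM in WT and listed at 0 in both stabilized libraries. Leaving out 1 library ended the call of Traf1 (without WT replicate 2 or stabilized replicate 2) and of Hdac11 (without WT replicate 2 or either stabilized replicate), at adjusted p from 0.0519 to 0.0790 in edgeR. Rps29, a ribosomal protein gene that every cell uses, went from 33.1 and 67.8 to 0 and 0, so a 0 here need not mean an absent transcript. Among better measured genes, Ccl21a, a lymphoid chemokine gene, fell from 205 and 220 to 9.6 and 10.8 TPM (log2 fold change -4.23, SE 0.50, adjusted p = 0.00905 in edgeR), beside a gained intronic region of 4.54 and 4.51; it has near-identical copies in the genome. Dbp, a clock-controlled gene, was at 148 and 8.27 against 0.207 and 0.577. Egr1 and Dusp1, immediate-early genes that cell handling induces, were at 70.4 and 10.5 against 1.09 and 2.43, and at 140 and 20.5 against 9.45 and 14.3. In these 3 genes WT 1 stood far above WT 2. Beside lost regions, Mest, an imprinted gene, fell from 1.44 and 1.52 to 0 and 0.0232 TPM with a lost promoter region (3.97 and 4.14 in WT, chr6:30737840-30738165), and Ramp3, a receptor-modifying protein, from 1.23 and 2.72 to 0.0635 and 0. Emp1 fell from 6.79 and 7.15 to 0.379 and 0 TPM (adjusted p = 0.0129 in edgeR), and its lost region lay 339906 bp past its start, with 77.1% of the window masked. The other 5 were 1700025G04Rik, Lcp2, Cdc42ep2, Cemip2 and Rps29.

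**Figure D5:**
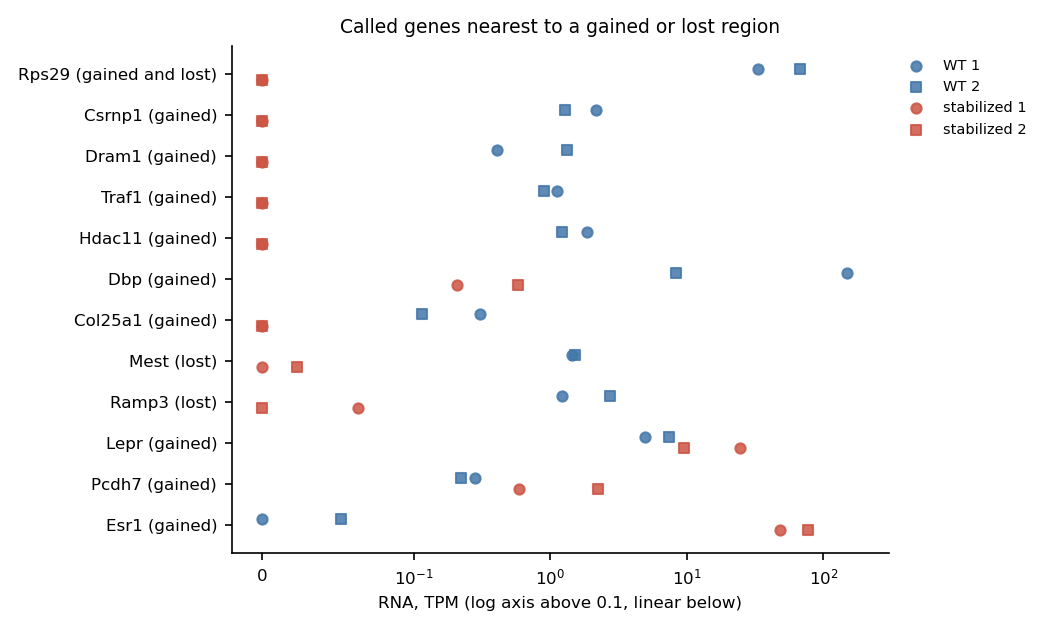
RNA in TPM (horizontal axis, logarithmic above 0.1 and linear below) of 9 of the 10 genes of largest fall and the 3 that rose among those called by edgeR and nearest to a gained or lost region; WT libraries are blue and stabilized libraries red, circles replicate 1 and squares replicate 2, each point 1 library. Esr1 went from at most 0.0518 to 47.9 and 76.7 TPM, and 6 of the falling genes shown are listed at 0 in both stabilized libraries.

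Of the other loci the study names for these libraries, Slc35f2, an orphan solute carrier, had no gained or lost region, and its RNA was at 81.8 and 56.4 TPM in WT and 109 and 79.7 in stabilized ECs. Mfsd2a, the lipid transporter that restrains transcytosis in brain ECs, was nearest to no gained region, but 3 lay within 100 kb, nearest to Cap1, Mycl and Trit1. The targeted exon 3 of Ctnnb1 (chr9:120950522-120950749) held no peak in any of the 4 libraries, so the peak lists cannot show its excision. Pdgfb, whose regulatory DNA drives the Cre, had 17 and 19 peaks within 100 kb in WT and 27 and 22 in stabilized ECs. Ctnnb1 had 7 and 7 against 9 and 7, and Tek, the Tie2 gene, 7 and 6 against 9 and 8. The stabilized libraries also kept more peaks over the whole genome, 33514 and 31669 against 26394 and 24020.

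Gained regions were also looked up in ECs of the pituitary, whose vessels are permeable. The anterior lobe libraries kept 36860 and 45040 peaks in WT and 40071 and 42621 in stabilized ECs. Those of the posterior lobe kept 21050 and 20634 against 28926 and 38583. The shares below depend on how many peaks a library kept and cannot be read apart from these numbers. Both WT libraries of the anterior lobe carried a peak at 36.2% of the 5093 gained regions, and both stabilized ones at 44.1%. In the posterior lobe the shares were 6.99% and 29.5%. For lost regions they were 40.6% and 26.1% in the anterior and 41.5% and 20.7% in the posterior lobe, and for regions called in all 4 cerebellum libraries 85.7%, 89.2%, 73.8% and 89.1%. By the same rule, 219 gained regions (4.30%) were gained in the anterior and 963 (18.9%) in the posterior lobe, against 2.87% and 11.5% of the regions called in all 4. TCF/LEF words were in 21% (16.1 to 26.9) of the regions also gained in the anterior lobe, in 11.7% (9.85 to 13.9) of those also gained in the posterior lobe, and in 26.7% (19.1 to 36.1) of those gained in both (1.98% of all gained), against 12.8% of all gained. They were in 19.6% (17.8 to 21.5) of the 1732 with no peak in any pituitary library, but in 7.51% (6.20 to 9.05) of the 1319 called in all 4 stabilized pituitary libraries. Of lost regions, 89 (13.3%) were lost in the anterior and 158 (23.6%) in the posterior lobe, against 0.226% of shared regions lost in the latter, and 64.0% and 60.1% of these were mostly masked repeat. The genotypes of the pituitary mice differ in Cre and 4HT in the same way.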

How the data were processed

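Libraries were grouped by their labels; 1 pituitary RNA library whose labels name both lobes was taken as anterior by its title and enters only the shared spread. Per the submitters' processing notes and the study's methods, the authors aligned ATAC-seq reads with Bowtie2 2.3.2 to mm10, removed duplicates and called peaks in each library alone with MACS2 2.1.1.20160309. The deposited peak lists give a fold enrichment (a ratio to local background), a -log10 p and q, and a score that was not used. For RNA-seq the authors deposited Salmon 0.10.2 estimates, the estimated counts per transcript and the TPM, which were summed here to genes (GENCODE M21, GRCm38). Peaks were joined where they overlapped by 1 bp, with Python 3.11.15 and pandas 2.3.3. Pileups were recovered from -log10 p values, at a tolerance of 0.01. Fold enrichments were log2-transformed, centred on each library's median and tested with limma 3.58.1. Rounded estimated counts of 12 GFP-positive libraries (17260078 to 33458597 per library) were tested with edgeR 4.0.16 (TMM, quasi-likelihood, Benjamini-Hochberg, adjusted p under 0.05 and a 2-fold change) in R 4.3.3, with DESeq2 1.42.0 as an alternative. Both tests were tried on simulated data, and peak number, filter, window, scaling, left-out libraries and a replicate block were varied. The edgeR p-values rest on a spread shared by the 12 libraries of the cerebellum and both pituitary lobes. Those of limma rest on the spread within the 2 libraries of each cerebellum group, moderated across regions. The libraries of a group are biological replicates per the study's methods, and exact permutation of 2 against 2 allows no p below 0.333. Regions named are the 12 gained and 12 lost of highest fold enrichment; genes named are list genes nearest to one, the called genes of largest change, those with the most regions within 100 kb, and the loci the study names. A few genes that these rules name are not reported here. Members and lists were chosen with earlier results of these data known.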

Additional observations from a re-analysis of the deposited data

Results flagged for a closer look

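In some regions the change in the cerebellum had the opposite direction in a lobe of the pituitary by the same rule of presence in both libraries of 1 genotype and neither of the other. Of the gained regions, 68 (1.34%) were lost in the anterior and 8 (0.157%) in the posterior lobe, against 0.698% and 0.226% of the regions called in all 4 cerebellum libraries and 2.01% and 1.56% of those in other patterns. Of the lost regions, 7 (1.04%) were gained in the anterior and 43 (6.42%) in the posterior lobe, below the 2.87% and 11.5% of regions called in all 4 and the 2.43% and 13.3% of those in other patterns. Among the 12 lost regions of highest fold enrichment, this held for an intronic region of Tmem241, with a mean of 11.2 in the WT cerebellum libraries, and for the promoter region of Lypd6, with a mean of 10.5; both carried a peak in both stabilized and neither WT library of the posterior lobe. These differences between tissues were not tested. A TCF/LEF word was in 9 of the 43 regions lost in the cerebellum and gained in the posterior lobe (20.9%, 95% Wilson interval 11.4 to 35.2) and in 3 of the 68 gained in the cerebellum and lost in the anterior lobe (4.41%, 1.51 to 12.2).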

How the results depend on the processing

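The number of gained regions, 5093, was 1360 with 20000 peaks per library, 1970 with as many peaks as the smallest library, 3225 at a stricter filter (fold enrichment 4, -log10 q 5), and 523 at 0.5 of the scaled pileup, a setting chosen after seeing the data. The number of lost regions, 670, was 1178 with as many peaks as the smallest library, 372 at the stricter filter, 179 at 0.5 of the scaled pileup and 421 without mostly masked windows, the latter also chosen after seeing the data. The share of gained regions at promoters was 23.8%, 23.6%, 23.4% and 23.9% under the 4 settings of the first sentence, 18.8% when peaks within 250 bp counted as shared and 31.9% with promoters of 2500 bp to either side. That of lost regions was 22.6% with 20000 peaks, 21.9% without masked windows and 24.2% with promoters of 2500 bp to either side. The share of gained windows with a TCF/LEF word was 17.1%, 14.3%, 14.0% and 17.4% under the first 4 settings. Windows of 50 bases to each side of the summit gave 7.11% of gained, 3.58% of lost and 4.47% of shared windows, and of 200 bases 20.4%, 14.0% and 13.5%.

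Leaving out 1 library left a group with 1 library, whose spread was then assumed to be that of the others, and made the presence rule looser. It gave 6405 to 8773 gained regions with 20.6% to 24.6% at promoters and 11.4% to 13.3% with a word, and 837 to 2558 lost regions with 16.2% to 18% at promoters and 6.10% to 8.21% with a word. For regions called in all 4 it gave 0 to 1155 higher and 67 to 1776 lower, the low ends without stabilized replicate 1. RNA gave 18 to 52 higher and 152 to 466 lower genes, 4 to 11 and 33 to 108 nearest to gained, and 0 to 2 and 7 to 18 nearest to lost regions.

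The libraries share a replicate number only: deviations of same-numbered libraries correlated at 0.13 in fold enrichment and -0.02 in RNA. With the replicate block, each pair taken alone gave 10395 and 10511 gained and 2958 and 2442 lost regions, with 23.6% of gained at promoters and 11.4% with a word in pair 1 and 19.5% of lost at promoters in pair 2, and limma called 374 higher and 929 lower. The block changed no other count by over 1.5 times. For regions called in all 4, no centring gave 3841 higher and 142 lower, quantile normalization 5 and 7, 20000 peaks 77 and 193, edgeR on the recovered pileup, added after seeing the data, 349 and 866, and the stricter filter 234 lower.

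For RNA of all genes, DESeq2 called 123 higher and 649 lower, no filter on low counts 113 and 454, and the cerebellum libraries alone 3 and 3. For genes nearest to gained regions these were 23 and 119, 29 and 117, and 0 and 1; within 100 kb of the gene body 7 and 49 were called, and with 20000 peaks 8 lower. For genes nearest to lost regions, DESeq2 called 3 and 25, no filter 5 and 22, the cerebellum libraries alone 0 lower, 20000 peaks 3 higher, and starts within 20 kb 3 lower. Of the named genes, Mfsd2a changed sign, at -0.29 without WT replicate 1 and -0.08 without stabilized replicate 2, with values up to 0.62 without WT replicate 2, and Axin2 was called without the filter (log2 fold change 1.49, adjusted p = 0.00483 in edgeR); 22 other calls under an alternative missed the threshold and 128 kept direction and call. The causes of these differences were not tested.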
